A study of Arabidopsis thaliana with 28 samples.

Results

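Across the seedling transcriptomes of ddm1 mutants, 67 expressed Arabidopsis genes had lower RNA levels in ddm1 than in WT in the Col parent and in both reciprocal hybrids of Col and C24. They were chosen from a table of 28437 genes in RPM (reads of a gene scaled to the same total in every library). A gene was taken when its mean over 3 replicates was at or over 5 RPM in WT-Col, WT-ColXC24, WT-C24XCol and WT-C24, which 14736 genes met, and when its ratio of ddm1 mean to WT mean was at or under 0.67 in Col, in ColXC24 and in C24XCol. The ddm1 values of C24 took no part in the choice, so C24 is the background in which the effect of ddm1 on these genes could be tested.

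DDM1 is a chromatin remodeler of the SWI2/SNF2 kind that keeps DNA methylation on transposable elements and other heterochromatin. Loss of DDM1 is best known for switching silent transposable elements on. The 67 genes come from many pathways, among them lectins, defensin-like peptides, immune receptors, a jasmonate-induced storage protein and cell wall enzymes.

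The RNA came from whole seedlings 2 weeks old, with 3 replicates of each of 8 genotypes. These were the parents ddm1-Col and ddm1-C24 and the hybrids ddm1-ColXC24 and ddm1-C24XCol (labelled ddm1ColXddm1C24 and ddm1C24Xddm1Col, with both parents mutant), and the same 4 backgrounds with functional DDM1, WT-Col, WT-ColXC24, WT-C24XCol and WT-C24. A hybrid is named with its mother first. All plants were grown alike on half-strength MS plates, and the labels do not give the ddm1 allele of the RNA libraries. Whole seedlings are a mixture of cell types, so fewer cells of a type and less RNA per cell cannot be told apart in any value given here.

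DDM1 itself (AT5G66750, listed as CHR1) had 2.6, 1.7 and 2.6 RPM in ddm1-Col replicates 1, 2 and 3, against 6.3, 9.5 and 12.6 RPM in WT-Col. The hybrids showed a smaller drop, with overlap. The transcript was at 4.1, 5.6 and 8.6 RPM in ddm1-ColXC24, against 5.8, 8.5 and 10.7 RPM in WT-ColXC24. In ddm1-C24XCol it was at 4.1, 6.5 and 8.0 RPM, against 5.8, 5.4 and 12.1 RPM in WT-C24XCol, so replicate 2 was higher in the mutant. In the libraries labelled ddm1-C24 it was at 6.7, 14.3 and 13.2 RPM, against 6.0, 7.0 and 12.4 RPM in WT-C24, so the transcript was not lower in them (log2 difference 0.41, SE 0.402, limma adjusted p = 0.777). A transcript level does not show whether the protein works, and this check does not tell the C24 libraries apart. Markers of leaf mesophyll, root, guard cells, vasculature and dividing cells, and of root hairs, had summed levels that overlapped between ddm1-C24 and WT-C24. Overlap does not show equal levels. The median C24 log2 difference was -0.685 for leaf mesophyll, -0.433 for guard cell and 0.659 for dividing cell markers. It was 0.153 for root, -0.004 for root hair and 0.049 for vasculature markers, and 0 of these markers passed the test. The summed levels of 6 flower markers (8.6 to 11.6 RPM in ddm1-C24 and 4.9 to 7.2 RPM in WT-C24, 4 of the 6 under 1 RPM) and of 1 pollen marker (11.2 to 12.9 RPM in ddm1-C24 and 6.5 to 9.0 RPM in WT-C24) did not overlap. The 10 seed markers (mostly storage proteins and oleosins) summed to 149 to 436 RPM in ddm1-C24 and 600 to 1982 RPM in WT-C24, and none of the markers is among the 67 genes. The part of these marker differences, and of the seed, flower and pollen transcripts, in the C24 results was not tested. Replicates 2 and 3 of ddm1-C24 were the closest of all 276 pairs of libraries (SD of their log2 differences 0.182, against 0.472 for the next pair of the same genotype), and replicate 2 correlated better with libraries numbered 3 (mean r 0.659 over 7) than with those numbered 2 (mean r 0.298 over 7). Whether they are separate samples or one sample could not be settled, and if they are one sample ddm1-C24 has 2 samples and not 3. Counts of members in C24, and calls that were lost, are therefore given also with these libraries averaged to 1.

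In the 3 backgrounds used for the choice, the median ddm1 to WT ratio of the 67 genes was 0.543 in Col, 0.56 in ColXC24 and 0.54 in C24XCol, values that the rule itself set. The median over the 14736 genes of that level was 0.917, 0.958 and 0.955 in these backgrounds. The ratio limit was passed in Col by 1.86% of those genes, in ColXC24 by 1.3% and in C24XCol by 2.14%. Most of the genes lay near the limit, and 15 of the 67 had a ratio under 0.5 in all 3 backgrounds. The last genes inside the limit were COR15A (highest ratio 0.663), JAZ11 (0.664) and AT1G31550 (0.665), and the first outside were AT1G20490 (0.671), AT1G52710 (0.671) and AT3G59330 (0.671). The total of each library bears on such narrow margins. After RPM were rescaled by median ratios between libraries, 43 genes met the rule, all of them among the 67.

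**Figure D1:**
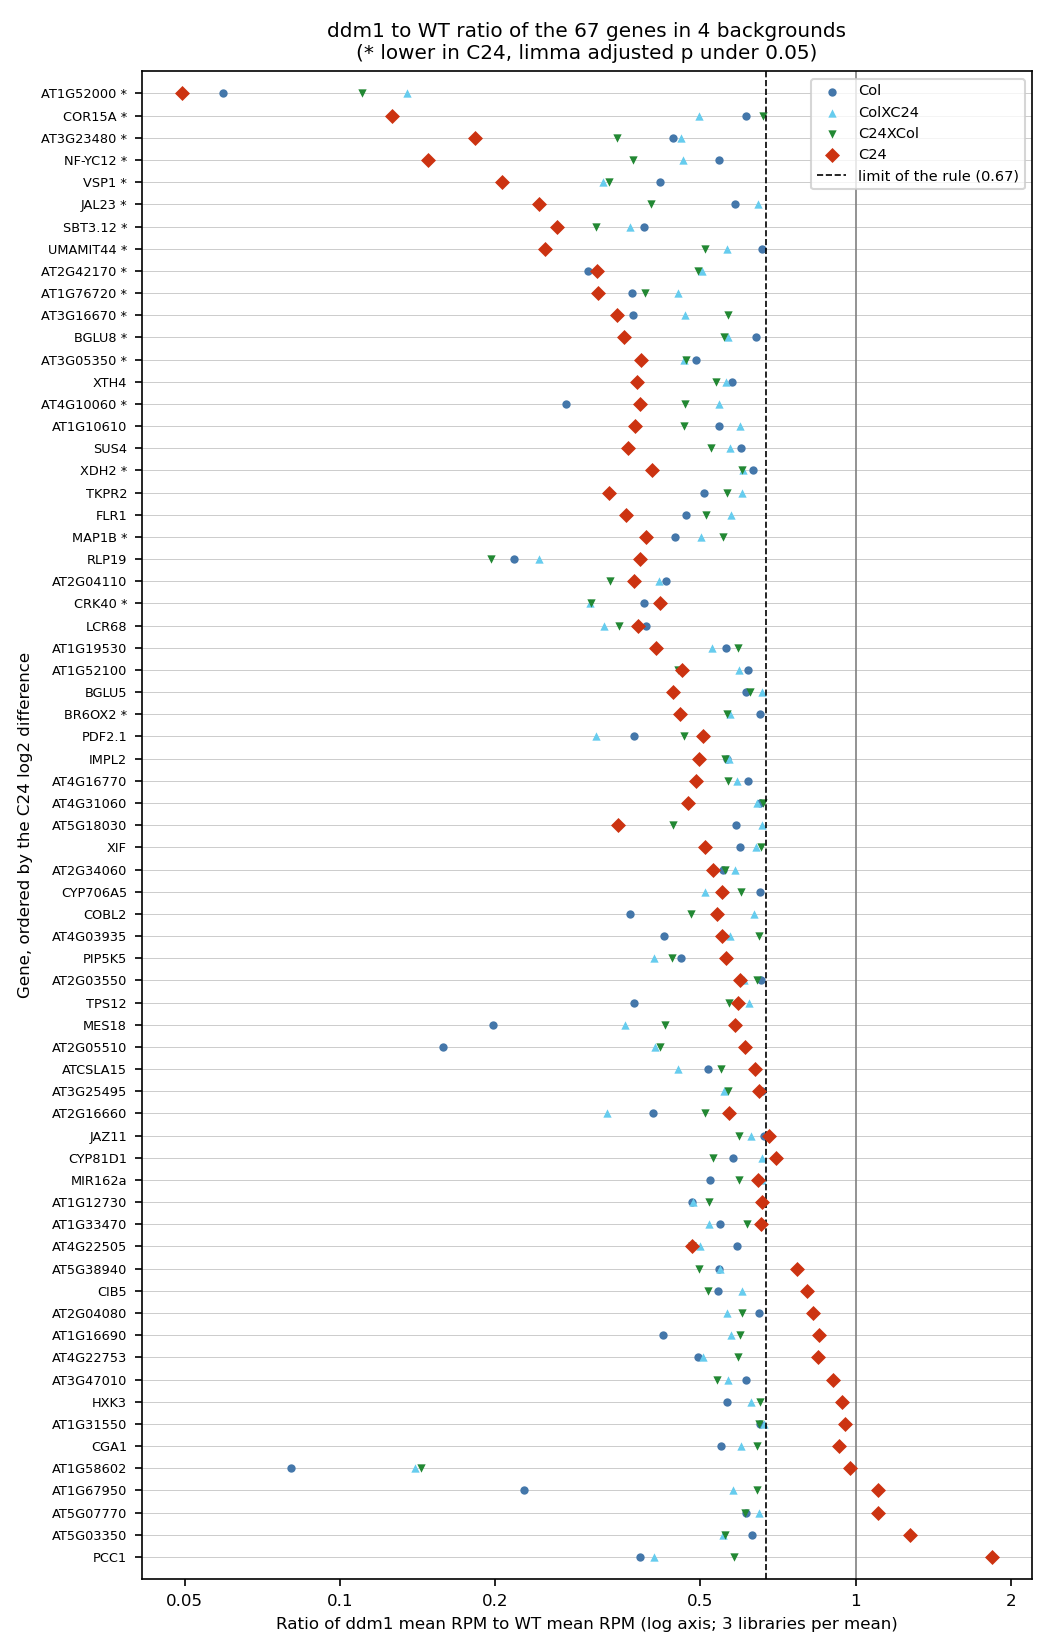
Ratio of ddm1 mean RPM to WT mean RPM (log axis) for each of the 67 genes, with circles for Col, upward triangles for ColXC24, downward triangles for C24XCol and diamonds for C24. Genes run from the lowest C24 log2 difference at the top to the highest at the bottom, the dashed line is the limit of the rule at 0.67, and stars mark the 18 genes lower in C24. Most diamonds lie left of the line as well, and 4 genes at the bottom lie right of 1.

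The gene lowered most was AT1G52000 (chr1:19333088-19336135, minus strand, TAIR10.1), a jacalin-type mannose-binding lectin. It had 3.3, 3.6 and 1.5 RPM in ddm1-Col, against 54.5, 57.4 and 29.8 RPM in WT-Col. In ddm1-ColXC24 it had 17.6, 22.3 and 9.2 RPM, against 132.6, 150.3 and 80 RPM in WT-ColXC24, and in ddm1-C24XCol 14.7, 16.1 and 11.6 RPM, against 110.0, 171.8 and 101.7 RPM in WT-C24XCol. In C24, where it was not chosen, it had 6.4, 6.1 and 6.3 RPM in ddm1-C24, against 130.4, 133.0 and 116.7 RPM in WT-C24. Every ddm1 library was far under every WT library of its background. The C24 log2 difference was -4.23 (SE 0.127, limma adjusted p = 1.3e-05).

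Promoter sequences are shown for this gene and for 4 further members on which the account below turns, 2 defensin-like genes that lie side by side and 2 hormone- and cold-regulated genes. Each is the 250 bases before the annotated start in TAIR10.1 (RefSeq), 5′ to 3′ in the direction of the gene, with matches to a set of known promoter words in capitals.
AT1G52000 (chr1:19336136-19336385, minus strand): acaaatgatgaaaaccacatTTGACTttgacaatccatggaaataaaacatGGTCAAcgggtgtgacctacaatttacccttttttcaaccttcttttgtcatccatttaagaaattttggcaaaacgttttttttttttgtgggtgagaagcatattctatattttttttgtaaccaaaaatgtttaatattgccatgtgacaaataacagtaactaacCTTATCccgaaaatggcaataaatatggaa
PDF2.1 (chr2:538000-538249, plus strand): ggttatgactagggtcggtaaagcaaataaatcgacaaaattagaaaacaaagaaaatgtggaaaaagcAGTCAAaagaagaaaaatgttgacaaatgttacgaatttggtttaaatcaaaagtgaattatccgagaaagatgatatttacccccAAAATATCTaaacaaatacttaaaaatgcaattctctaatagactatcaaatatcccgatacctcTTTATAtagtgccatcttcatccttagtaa
LCR68 (chr2:539648-539897, plus strand): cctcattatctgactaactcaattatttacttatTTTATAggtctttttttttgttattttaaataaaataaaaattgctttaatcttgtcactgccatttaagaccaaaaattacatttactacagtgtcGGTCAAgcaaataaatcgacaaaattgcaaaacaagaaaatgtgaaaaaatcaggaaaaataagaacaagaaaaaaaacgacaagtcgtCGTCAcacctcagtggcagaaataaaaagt
COR15A (chr2:17712331-17712580, minus strand): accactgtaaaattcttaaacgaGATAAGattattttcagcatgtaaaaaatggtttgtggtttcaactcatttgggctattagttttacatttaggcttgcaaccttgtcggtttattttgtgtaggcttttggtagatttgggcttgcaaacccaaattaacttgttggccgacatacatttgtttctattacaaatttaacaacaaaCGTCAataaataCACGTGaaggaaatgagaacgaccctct
VSP1 (chr5:8509202-8509451, minus strand): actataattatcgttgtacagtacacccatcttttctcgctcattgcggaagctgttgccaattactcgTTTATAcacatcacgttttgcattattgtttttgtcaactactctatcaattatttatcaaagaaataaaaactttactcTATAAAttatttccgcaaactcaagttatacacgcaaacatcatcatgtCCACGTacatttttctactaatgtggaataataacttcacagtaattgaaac
The words were searched on both strands and may overlap. AT1G52000 holds TTGACT and the related TTGACC, and GATAAG lies 30 bases before its start on the reverse strand. COR15A holds CACGTG (the G-box) 28 bases before the start, with GATAAG and TGACG farther up, and VSP1 holds ACGTGG and 2 copies of TATAAA. A match is a description of the letters and not evidence of a site in use.

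In C24, the RNA of 18 of the 67 genes (26.9%) was lower in ddm1-C24 than in WT-C24 at a limma adjusted p under 0.05, and that of none was higher (0 also at an unadjusted p under 0.05, at which 35 were lower). Over all 22329 tested genes 1.13% were lower, and 0.964% of the genes of the same level, while 8.61% and 1.03% were higher. With the replicate number as a block, 28 members (41.8%) were lower and 0 higher (2 at an unadjusted p under 0.05), and all 18 were among the 28. Without ddm1-C24 replicate 2 the blocked count was 16. Of the 10 members that passed with the block but not in the fit without it, IMPL2 alone then held, and the others lost their blocked call. A blocked fit with fewer libraries can pass fewer genes whichever library is left out, and no other was left out of it. In the blocked fit 2.43% of all tested genes and 2.54% of those of the same level were lower, and 9.97% and 2.29% were higher. With ddm1-C24 replicates 2 and 3 averaged to 1, or with replicate 2 left out, 11 members were lower. Shares over all genes are not given for these fits or for the blocked fit without replicate 2, so their counts stand without a background. WT-C24 entered the level part of the rule, so the share among genes of the same level is the closer background. The remaining 49 genes did not pass, which does not show that they were unaffected.

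The C24 values leaned the same way for most genes beyond those that passed. The median C24 log2 difference of the 67 genes was -0.87, against -0.02 for genes of the same level and 0.03 for all tested genes. The ratio of means was at or under 0.67 in C24 for 51 of the 67 (76.1%), against 7.76% of the genes of that level, and for 50 with the averaged libraries (74.6%, against 8.12%). It lay between 0.67 and 1 for 12 and above 1 for 4. All 3 ddm1-C24 libraries were under all 3 WT-C24 libraries for 35 genes (52.2%, against 9.22%), or 37 with the averaged libraries (55.2%, against 10.6%), and ddm1-C24 was lower in each of the 3 replicate numbers for 48 (against 26.2%). The median ratio of the 67 genes was 0.435, 0.531 and 0.5 in replicates 1, 2 and 3, against 0.936, 1.08 and 0.946 for genes of that level.

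**Figure D2:**
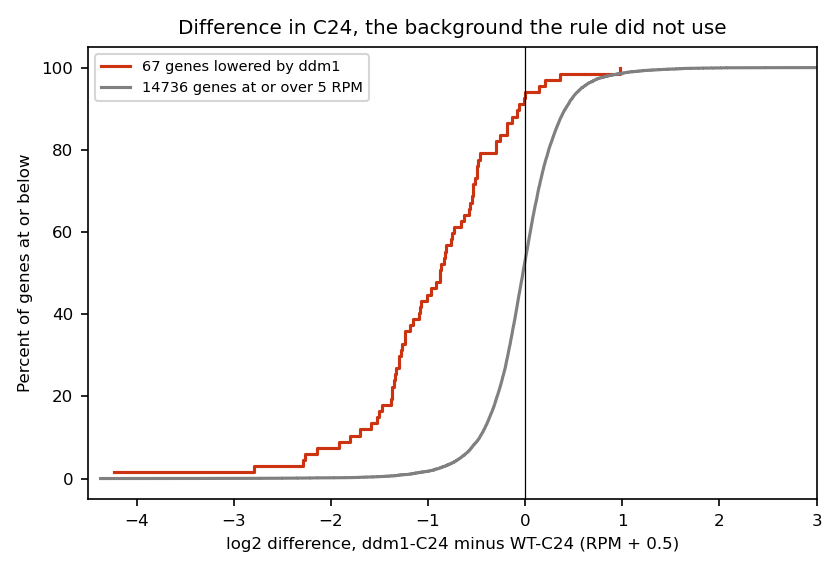
Cumulative percent of genes (vertical axis) at or below each log2 difference of ddm1-C24 from WT-C24 (horizontal axis, log2 of RPM + 0.5), for the 67 genes in red and the 14736 genes at or over 5 RPM in grey. The red curve lies to the left, with a median of -0.87 against -0.02.

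Lectins, proteins that bind sugars on cell surfaces or on microbes, gave 4 members. JAL23 (AT2G39330, a jacalin-related lectin) had 8.1, 6.2 and 6.4 RPM in ddm1-C24, against 24.5, 39.8 and 20.9 RPM in WT-C24 (log2 difference -1.92, SE 0.285, adjusted p = 0.00825). The groups did not overlap, and JAL23 kept its call when ddm1-C24 replicates 2 and 3 were averaged. AT1G52100, a further mannose-binding lectin, lies 46942 bases from AT1G52000 with 9 genes of the table between them. It had 7.4, 13.1 and 13.3 RPM in ddm1-C24, against 17, 30.7 and 25.8 RPM in WT-C24 (-1.09, SE 0.33, adjusted p = 0.132, block-adjusted p = 0.011). The legume-type lectin AT5G03350 had 53.6, 38.0 and 36.2 RPM in ddm1-C24, against 43.1, 27.4 and 29.5 RPM in WT-C24 (0.36, adjusted p = 0.615). Its ratio was 0.63 in Col, 0.553 in ColXC24 and 0.557 in C24XCol, so the 3 jacalin-type members had ratios under 0.67 in all 4 backgrounds and the legume-type member in the 3 of the rule.

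PDF2.1 and LCR68 encode small defensin-like peptides, secreted cysteine-rich proteins related to antimicrobial defensins, and the genes are direct neighbours. PDF2.1 (chr2:538250-539123) and LCR68 (chr2:539898-540707) lie on the same strand, 774 bases apart. LCR68 had 14.5, 46.4 and 54.3 RPM in ddm1-Col, against 36.9, 108.0 and 148.7 RPM in WT-Col, and 18.9, 44.3 and 41.9 RPM in ddm1-C24, against 27.4, 111.1 and 139.0 RPM in WT-C24. PDF2.1 had 2.1, 8.0 and 9.3 RPM in ddm1-C24, against 5.8, 17.2 and 15.3 RPM in WT-C24. In both genes replicate 1 was the lowest of every genotype, and within each replicate number ddm1-C24 was under WT-C24. The C24 log2 difference was -1.19 for LCR68 (SE 0.69, adjusted p = 0.509, block-adjusted p = 0.0694) and -1.01 for PDF2.1 (SE 0.657, adjusted p = 0.58, block-adjusted p = 0.043). Their promoters, printed above, share a run of 22 bases, aagcaaataaatcgacaaaatt, which begins 230 bases before the start of PDF2.1 and 115 before that of LCR68. The transcripts of the 2 genes were not compared, so whether reads can match both is not known. How the counting treated reads that match more than 1 gene is not given in the sources used here.

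Jasmonate and cold responses each gave a strongly lowered gene. VSP1, a vegetative storage protein and a common reporter of jasmonate, had 51.9, 32.6 and 14.8 RPM in ddm1-Col, against 137.5, 67.5 and 33.0 RPM in WT-Col. It had 5.4, 2.9 and 2.5 RPM in ddm1-C24, against 16.0, 12.4 and 23.9 RPM in WT-C24 (-2.14, SE 0.371, adjusted p = 0.0165, block-adjusted p = 0.0336). The groups did not overlap in C24, but they did in Col, where replicate 1 was highest in both genotypes, and the C24 call was lost with the averaged libraries. Of 34 jasmonate genes tested in C24, VSP1 among them, 5 were lower and 0 higher (5 and 1 in the block fit). Over all tested genes 1.13% were lower and 8.61% higher (2.43% and 9.97% in the block fit). The list had a median log2 difference of -0.26, and the count of lower genes was 1 with the averaged libraries. JAZ11, a repressor of jasmonate responses, had 11.8, 10.5 and 9.0 RPM in ddm1-C24, against 18, 14.4 and 13.6 RPM in WT-C24 (-0.53, adjusted p = 0.238).

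COR15A encodes a chloroplast protein that protects membranes during freezing. It had 44.1, 54.0 and 35.8 RPM in ddm1-Col, against 76.1, 99.5 and 43.2 RPM in WT-Col, and 2.4, 3.3 and 3.4 RPM in ddm1-C24, against 19.3, 24.1 and 28.7 RPM in WT-C24. The ratio was 0.126 in C24 and 0.612, 0.497 and 0.663 in Col, ColXC24 and C24XCol, so the gene stood near the limit of the rule and was the second lowest in C24 (-2.79, SE 0.239, adjusted p = 5.96e-04). Whether the C24 ratio differs from the others was not tested. Of 28 cold and heat genes tested, COR15A among them, 2 were lower in ddm1-C24 and 0 higher (3 and 0 in the block fit). Over all tested genes 1.13% were lower and 8.61% higher (2.43% and 9.97% in the block fit). The list had a median of -0.43, and 1 gene, COR15A, was lower with the averaged libraries.

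Some members have roles in the cell wall or in growth. XTH4, a xyloglucan endotransglucosylase that loosens and rebuilds the wall, was the second most abundant member. It had 143.8, 90.4 and 93.7 RPM in ddm1-C24, against 408.1, 268.5 and 193.5 RPM in WT-C24 (-1.37, SE 0.333, adjusted p = 0.0641, block-adjusted p = 0.00993), with no overlap between the groups. Among 45 tested expansins and XTH genes, which include XTH4, 0 were lower and 1 was higher in ddm1-C24 (2 and 2 in the block fit). Their median was -0.19. AT3G16670 is annotated as a pollen Ole e 1 allergen and extensin family protein, which does not by itself give it a role in the wall. It had 6.5, 10.8 and 9.4 RPM in ddm1-C24, against 28.1, 23.0 and 26.3 RPM in WT-C24 (-1.51, SE 0.232, adjusted p = 0.00956). COBL2, a COBRA-like protein with a role in cellulose deposition, and the glycosyltransferase ATCSLA15 had C24 log2 differences of -0.81 and -0.57 and did not pass. BR6OX2, the P450 that makes brassinolide, the most active brassinosteroid, had 6.0, 7.5 and 7.6 RPM in ddm1-C24, against 16.2, 12.8 and 17.3 RPM in WT-C24 (-1.08, SE 0.207, adjusted p = 0.0254). Of 44 brassinosteroid and gibberellin genes, BR6OX2 among them, 3 were lower and 1 higher in ddm1-C24 (5 and 1 in the block fit). Their median was -0.25. Over all tested genes 1.13% were lower and 8.61% higher (2.43% and 9.97% in the block fit). BR6OX2 lost its call and the count of lower genes was 0 with the averaged libraries.

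Receptor-like and leucine-rich repeat proteins were also among the members. CRK40, a cysteine-rich receptor-like kinase, had 10.1, 15.3 and 16.7 RPM in ddm1-C24, against 28.4, 29.7 and 42.9 RPM in WT-C24 (-1.24, SE 0.267, adjusted p = 0.0408), a call lost with the averaged libraries. RLP19, a receptor-like protein without a kinase domain, had 6.1, 4.1 and 4.5 RPM in ddm1-Col, against 35.1, 20.3 and 12.1 RPM in WT-Col. In ddm1-C24 it had 15.1, 8.1 and 8.5 RPM, against 41.0, 28.5 and 13.6 RPM in WT-C24 (-1.27, SE 0.463, adjusted p = 0.223). RLP19 was thus among the lowest ratios in the rule backgrounds (0.218, 0.244 and 0.197) and at 0.382 in C24, where its groups overlapped. FLR1, a leucine-rich repeat protein, had a C24 log2 difference of -1.30 (SE 0.406, adjusted p = 0.146, block-adjusted p = 0.0355).

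AT1G58602 (chr1:21746354-21766048, plus strand) is the NLR immune receptor gene known in Col as RPP7, which carries a COPIA retrotransposon in its first intron. It had 0.8, 14.1 and 31.6 RPM in ddm1-Col, against 155.7, 194.6 and 227.5 RPM in WT-Col. In ddm1-ColXC24 it had 12.6, 16.8 and 27.3 RPM, against 135.8, 124.4 and 145.6 RPM in WT-ColXC24, and in ddm1-C24XCol 14.5, 16.0 and 22.9 RPM, against 117.3, 99.8 and 154.4 RPM in WT-C24XCol. In C24 the same gene had 21.5, 21.4 and 22.6 RPM in ddm1-C24 and 28.8, 17.7 and 20.6 RPM in WT-C24 (-0.01, SE 0.21, adjusted p = 1). WT-C24 was thus at the level of the ddm1 libraries of the other backgrounds, with a mean 0.116 times that of WT-Col, and the WT hybrids lay between their WT parents. The reads were aligned to the Col genome, so a C24 allele that differs in sequence may be counted less well, which was not tested.

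The annotation places the pseudogene AT1G58561 (chr1:21748675-21753246), 4572 bases long, inside the first intron of AT1G58602, an intron of 7384 bases. This unit went the opposite way. It had 51.8, 20.3 and 58.8 RPM in ddm1-Col, against 11.5, 5.9 and 23.8 RPM in WT-Col, and 29.4, 12.2 and 27.5 RPM in ddm1-ColXC24, against 9.7, 4.7 and 13.8 RPM in WT-ColXC24. In C24 it was at 0.0, 0.0 and 0.1 RPM in ddm1-C24 and at 0 in all 3 WT-C24 libraries. The background in which AT1G58602 did not differ was thus the background in which reads of the intronic unit were at or next to 0. The part of the intronic unit in the level of the gene was not tested.

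**Figure D3:**
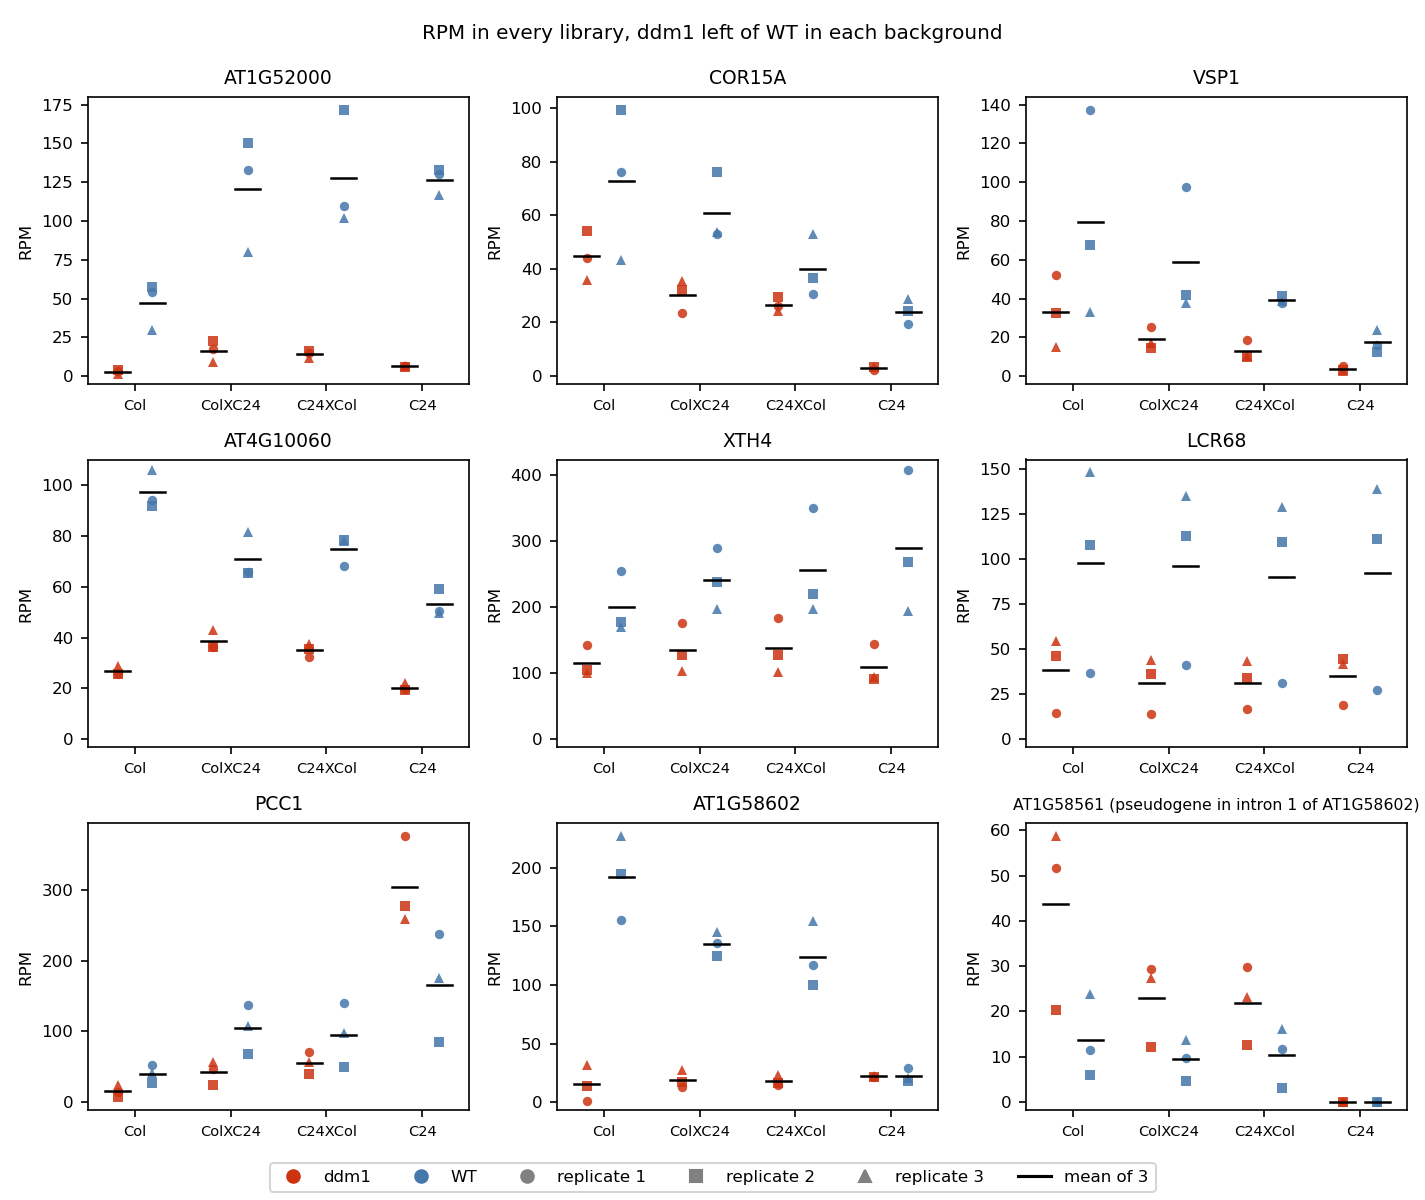
RPM of 8 members and of the intronic pseudogene AT1G58561 in every library (vertical axes, linear), with ddm1 in red left of WT in blue for each background, symbols for replicate numbers 1 to 3 and a bar at the mean. AT1G52000 and AT4G10060 show ddm1 under WT without overlap in each background, PCC1 reverses its order in C24, and AT1G58602 is low in both C24 genotypes.

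PCC1 (pathogen and circadian controlled 1), a small defence-related protein, had the highest C24 ratio of all members. It had 14.5, 7.0 and 24 RPM in ddm1-Col, against 52.0, 26.9 and 40.4 RPM in WT-Col. In ddm1-C24 it had 377.1, 277.4 and 259.4 RPM, against 237.5, 84.9 and 175.7 RPM in WT-C24 (0.98, SE 0.406, adjusted p = 0.3, block-adjusted p = 0.116). Its C24 groups did not overlap, with ddm1-C24 above WT-C24, and no other member showed that. WT-C24 had 4.17 times the mean of WT-Col. PCC1 and AT5G03350 are both known to respond to salicylic acid. In a list of 38 tested salicylic acid genes that holds neither, 19 were higher and 0 lower in ddm1-C24, with a median of 1.04, against 8.61% higher of all tested genes. The count of higher genes was 11 with the averaged libraries, and also 11 without ddm1-C24 replicate 2 or without replicate 3. AT1G67950, an RNA-binding protein with an RRM domain, and AT5G07770, a formin that acts on actin, had C24 log2 differences of 0.14 (adjusted p = 0.953) and 0.20 (adjusted p = 0.938), against Col ratios of 0.227 and 0.614.

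Many members encode enzymes. The glucosylceramidase-type AT4G10060 had 25.8, 25.6 and 28.8 RPM in ddm1-Col, against 94.4, 91.8 and 105.9 RPM in WT-Col, and 19.7, 19.2 and 21.9 RPM in ddm1-C24, against 50.6, 59.2 and 49.7 RPM in WT-C24 (-1.37, SE 0.139, adjusted p = 0.00137). No ddm1 library reached a WT library in any background. The beta-glucosidase BGLU8 had 17.3, 22.2 and 21.9 RPM in ddm1-C24, against 60.9, 49.7 and 61.9 RPM in WT-C24 (-1.47, SE 0.169, adjusted p = 0.00246), and its relative BGLU5 had -1.09 (SE 0.419, adjusted p = 0.255, block-adjusted p = 0.0471). The metallopeptidase AT3G05350 had 23.0, 29.5 and 32.7 RPM in ddm1-C24, against 76.8, 66.3 and 79.1 RPM in WT-C24 (-1.38, SE 0.175, adjusted p = 0.00403). Its ratio was 0.49 in Col, 0.465 in ColXC24, 0.47 in C24XCol and 0.383 in C24.

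AT3G23480, annotated as a cyclopropane-fatty-acyl-phospholipid synthase, had 1.4, 2.6 and 3.2 RPM in ddm1-C24, against 12.1, 13.5 and 13.8 RPM in WT-C24 (-2.29, SE 0.295, adjusted p = 0.00431). The subtilase SBT3.12, a serine protease, had 3.9, 4.2 and 4.4 RPM in ddm1-C24, against 16.5, 15.2 and 15.7 RPM in WT-C24 (-1.80, SE 0.17, adjusted p = 9.53e-04). The replicates of SBT3.12 were close to each other in both groups, while those of AT3G23480 varied more in ddm1-C24. XDH2 (xanthine dehydrogenase, purine breakdown) and MAP1B (a methionine aminopeptidase) passed with -1.33 (adjusted p = 0.0409) and -1.28 (adjusted p = 0.0153), and both calls were lost with the averaged libraries. SUS4, a sucrose synthase, and TKPR2, a reductase of sporopollenin synthesis, had -1.34 and -1.30 and did not pass. IMPL2, an enzyme of histidine synthesis, and the peroxidase AT2G34060 had -0.97 and -0.84 and passed with the block (adjusted p = 0.0466 and 0.0457) but not without it (adjusted p = 0.0594 and 0.205). Among the other enzymes, CYP706A5, CYP81D1, TPS12, MES18, AT2G03550, AT4G16770, AT1G31550, AT3G47010 and HXK3 had C24 log2 differences of -0.92 to -0.06, none past the test.

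UMAMIT44, of a family of amino acid exporters, had 1.7, 1.2 and 1.5 RPM in ddm1-C24, against 6.1, 6.1 and 5.4 RPM in WT-C24 (-1.70, SE 0.179, adjusted p = 0.00163). The transporters AT2G16660 (major facilitator family) and AT2G04080 (MATE family) had -0.54 and -0.25 and did not pass. AT2G42170 and AT1G76720, annotated as an actin family protein and a translation initiation factor, had -1.58 (adjusted p = 0.0422) and -1.52 (adjusted p = 0.0156), and both calls were lost with the averaged libraries. The myosin XIF had -0.86 and passed with the block (adjusted p = 0.036) but not without it (adjusted p = 0.0829).

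Among regulators of transcription, NF-YC12, a subunit of the CCAAT-binding factor NF-Y, had 1.3, 0.9 and 1.0 RPM in ddm1-C24, against 6.1, 9.8 and 5.7 RPM in WT-C24 (-2.27, SE 0.257, adjusted p = 0.00232). The bHLH protein AT1G10610 had 1.8, 4.1 and 4.5 RPM in ddm1-C24, against 6.7, 12 and 9.2 RPM in WT-C24 (-1.35, SE 0.388, adjusted p = 0.114, block-adjusted p = 0.027). The remaining regulators did not pass and had smaller differences. These were the ERF-type AT4G31060 at -0.88, CIB5, a bHLH protein named for binding a cryptochrome, at -0.30, the Enhancer of polycomb-like AT1G16690 at -0.19 and CGA1, a cytokinin-responsive GATA factor of chloroplast development, at -0.01. MIR162a, the precursor of a microRNA that targets DCL1, had 2.4, 7.8 and 8.5 RPM in ddm1-C24, against 2.8, 13.5 and 12.6 RPM in WT-C24, and also did not pass. The SAUR gene AT5G18030, of an auxin-induced family, PIP5K5, a phosphatidylinositol phosphate kinase, the cupin AT5G38940, AT1G19530, AT1G12730, annotated as a GPI transamidase subunit, and AT4G22753, not in the annotation used here, had C24 log2 differences of -1.15 to -0.18, none past the test.

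Many members differed in level between the WT parents. WT-C24 was at or under 0.5 times WT-Col for 9 of the 67 (13.4%, against 1.47% of genes of that level), which were AT1G58602, VSP1, AT2G04110, UMAMIT44, COR15A, BGLU5, BGLU8, AT1G12730 and AT3G16670. It was at or over 2 times WT-Col for 5 (7.46%, against 1.93%), which were PCC1, AT2G42170, AT1G52000, JAL23 and AT5G07770. The mean of the WT hybrids lay between the WT parents for 49 genes (73.1%, against 51.6%). The rule asked only for a level of 5 RPM in each WT group, but it did use these WT values, so the shares are descriptions.

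Several members varied with the replicate number. AT4G22505, a lipid transfer family gene with the highest WT mean of the members, had 383.4, 20.5 and 17.8 RPM in ddm1-Col, against 654.7, 35.1 and 26.9 RPM in WT-Col, and 205.9, 17.8 and 15.8 RPM in ddm1-C24, against 460.3, 21.9 and 15.3 RPM in WT-C24. Replicate 1 was over 10 times the others in every genotype, so its group means are those of replicate 1. MES18, a methyl esterase, was highest in replicate 3 of each genotype other than ddm1-C24, and had 1.9, 19.1 and 17.5 RPM in ddm1-C24, against 12.2, 4.5 and 49.1 RPM in WT-C24. In ddm1-C24 replicate 2 was thus as high as replicate 3. AT2G05510, a glycine-rich protein gene, was highest in replicate 2 of all genotypes but ddm1-C24, with 14.2, 31.8 and 15.2 RPM in ddm1-Col, against 82.2, 218.0 and 85.7 RPM in WT-Col. With replicate number 1, 2 or 3 left out of every genotype the rule took 60, 75 and 73 genes, of which 49, 56 and 53 were among the 67.

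The members lay closer to annotated pseudogenes than other expressed genes did, a property the rule did not use. In the TAIR10.1 annotation this class holds transposable element genes. Of 66 members with a position, 15 (22.7%) had such a pseudogene within 2000 bases, against 3.73% of the 14727 genes of that level with a position. The median distance was 13900 bases for the members and 74700 bases for the genes of that level. These 15 were AT1G12730, AT1G33470, HXK3, AT1G52000, AT1G58602, PDF2.1, XTH4, RLP19, COBL2, BR6OX2, SUS4, CRK40, VSP1, CYP81D1 and NF-YC12. An intron over 1000 bases was found in 8 members (12.1%, against 2.23%), which were AT1G58602, AT3G05350, AT4G10060, UMAMIT44, AT3G23480, SUS4, TPS12 and CRK40, although the median of the longest intron was 254 bases for the members and 266 bases for the genes of that level. Of the 15 genes near a pseudogene 5 were lower in ddm1-C24, and of the 51 farther away 13. Of the 8 genes with a long intron 5 were lower in ddm1-C24, and of the 58 others 13. The shares lower in ddm1-C24 among all genes of that level with these features are not given, and these differences between groups of members were not tested.

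**Figure D4:**
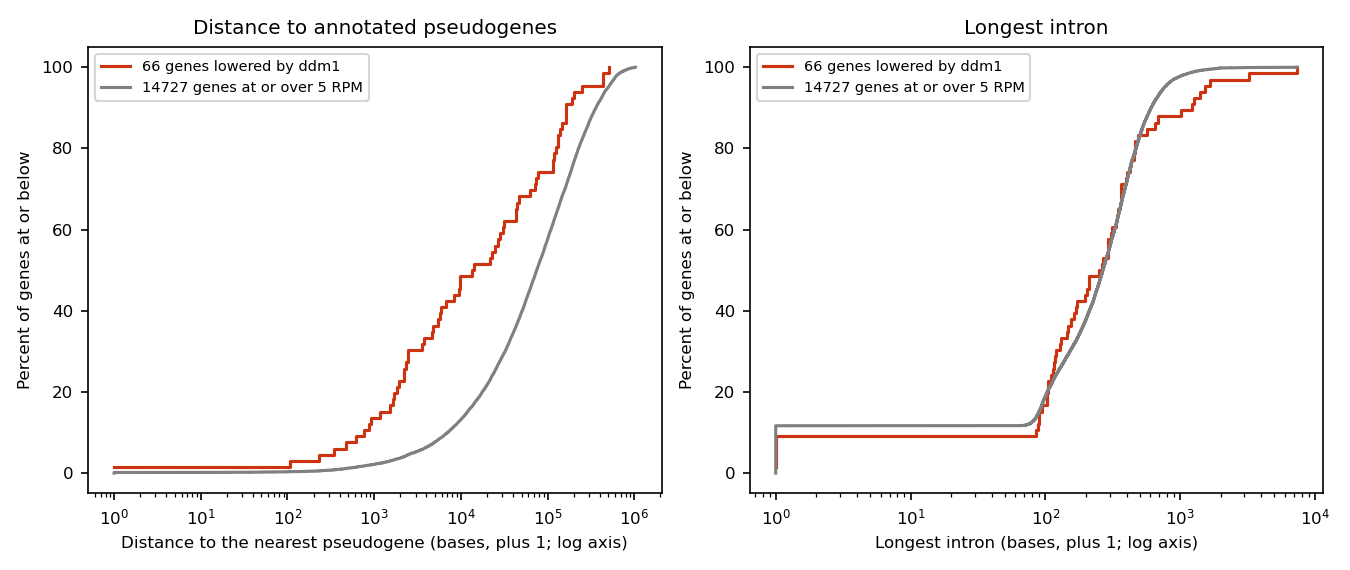
Cumulative percent of genes (vertical axes) against the distance to the nearest annotated pseudogene (left) and the longest intron (right), both in bases plus 1 on log axes, for 66 members in red and 14727 genes at or over 5 RPM in grey. The distance curve of the members lies to the left, with 22.7% within 2000 bases against 3.73%, while the intron curves part only at the upper end.

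Most of the nearby pseudogenes were themselves higher in ddm1. Within 2000 bases of the 15 members lay 16 pseudogenes, of which 14 were in the table and 11 were tested in C24. Of these 8 were higher in ddm1-C24 and 0 lower, against 75.2% higher of all 1734 tested pseudogenes, a share close to that of pseudogenes in general. The count was 8 with the averaged libraries too. AT2G15070, which ends 879 bases before RLP19, had 17.2, 22.0 and 26.3 RPM in ddm1-C24, against 0.2, 0.2 and 0.1 RPM in WT-C24. AT1G33460, near the RNA-binding protein gene AT1G33470, had 30.9, 45.2 and 52.0 RPM in ddm1-C24 and was at 0 in WT-C24. AT1G33470 had 43.0, 40.2 and 39.1 RPM in ddm1-C24, against 88.4, 31.5 and 66.5 RPM in WT-C24 (-0.48, adjusted p = 0.689). The pseudogene next to AT1G52000 was at 0 in all WT libraries and reached 0.1 RPM in 1 ddm1-Col library. That next to NF-YC12 was at 4.6, 6.8 and 7.9 RPM in ddm1-C24, against 11, 21.7 and 14.7 RPM in WT-C24, the same direction as its neighbour. The part of these units in the level of the members was not tested, and reads of near-identical copies make their own values uncertain.

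Of the 66 members, 62 were protein coding (93.9%, against 99.4%), and AT4G03935 is a non-coding RNA and AT2G04110 and AT3G25495 are transcribed pseudogenes. AT4G03935 and AT3G25495 had C24 log2 differences of -0.76 and -0.55 and did not pass. AT2G04110 had 1.5, 2.8 and 1.8 RPM in ddm1-C24, against 4.1, 7.0 and 5.3 RPM in WT-C24 (-1.24, SE 0.289, adjusted p = 0.0549, block-adjusted p = 0.0124). Another annotated gene overlapped 14 members (21.2%, against 32.1%), on the opposite strand for 11 (16.7%, against 28.0%). Since the strandedness of the libraries is not given in the sources used here, reads of such overlapping pairs may be mixed. Among 13 words searched in the 250 bases before the start, GATAAG stood in 21.2% of the members, against 12.5% of promoters of that level, and TGGGCC in 9.09%, against 18%. TATAAA stood in 40.9%, against 45.6%, CACGTG in 4.55%, against 7.4%, TTGACC in 12.1%, against 11.8%, and TTGACT in 15.2%, against 18.5%. TGACG was in 16.7%, against 19.4%, and ACGTGG in 9.09%, against 9.04%. GGTTAA was in 15.2%, against 15.4%, AAACCCTAA in 1.52%, against 2.02%, GAAGAAGAA in 4.55%, against 4.25%, and AAAGCTTT in 3.03%, against 1.34%. The evening element AAAATATCT was in 1 member, PDF2.1, and in 2.59% of the promoters of that level.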

How the data were processed

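RNA-seq of 24 seedling libraries was analysed. The 4 bisulfite samples were not analysed here. The authors mapped reads to the Col-0 TAIR10 genome (TopHat), made gene counts (HTSeq) and deposited them as RPM, per the labels and the paper's methods; tool versions, counting options and strandedness are not given in the sources used here. Library sums were 999819.3 to 1000187.1 and all values (100%) were multiples of 0.1 RPM, so reads were not recovered, the depth is unknown and low values are coarse. The table held 0 columns of other samples.

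A filter kept 22329 genes that reached 1 RPM in 3 or more libraries. They were tested with limma 3.58.1 (R 4.3.3, trend, two-sided) on log2(RPM + 0.5), ddm1-C24 against WT-C24 with 3 libraries each and Benjamini-Hochberg adjustment over all of them; the 3 contrasts used by the rule were described only. This scale understates the change of low genes. Group sizes allow no separate look at cultures, since nothing says how seedlings were pooled, so p-values measure the spread between these libraries.

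After genotype means were removed, libraries of the same replicate number correlated (84 pairs, mean r 0.757, lowest 0.159) and the others had a lower mean r (168 pairs, mean r -0.36, highest 0.731, where ddm1-C24 replicate 2 correlated with libraries numbered 3), so the number was used as a block in a second fit. Deviations within a genotype cancel out, so a positive r at the same number makes the r of different numbers negative. The second value is therefore not separate support for the block. What the replicate number stands for is not given.

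The 67 genes and all lists were chosen with earlier results of these data known. Genes were named by rule: the 12 lowest mean ratios, up to 10 lower and 10 higher in C24, those nearest the limit, list members, the 5 highest WT means, neighbours, the 5 lowest and 5 highest C24 differences, and DDM1; the other members were named after their values were seen. Of 18 lists of genes by role, 4 held a member and are described with the salicylic acid list, which held none. Lists left out also had genes lower in ddm1-C24, as in glucosinolate synthesis (9 lower and 1 higher of 33 tested). Names, positions, introns, pseudogenes and promoters came from the RefSeq annotation of TAIR10.1, with 66 of 67 members found (AT4G22753 was not) and 28331 table genes; the gene models may differ from those the authors used. Alternatives were other pseudocounts, filters, median-ratio rescaling, fits over all 8 genotypes, the block, other limits of the rule and every library left out; 3 were added after seeing the data (all 8 genotypes with block, ddm1-C24 replicates 2 and 3 averaged, and the block without ddm1-C24 replicate 2). Tested on simulated data for ddm1-C24 against WT-C24 (22329 genes), the fit recovered 47 of 100 genes changed 2-fold and 99 of 100 changed 4-fold, with 22 false calls, 3 of them at or over 5 RPM. The simulated libraries had a preset low spread, a preset depth and no effect of replicate number. Some genes, among them LCR68 and MES18, varied more in the real libraries. These counts therefore do not measure recovery or false calls in the real data.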

Additional observations from a re-analysis of the deposited data

Results flagged for a closer look

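For 3 members every ddm1 to WT ratio within a replicate number was above 1 in C24 and below 1 in Col. The Col part was nearly set by the rule, which asked for a Col ratio of means at or under 0.67. All 3 Col ratios were below 1 for 65 members. The share of genes of that level with all C24 ratios above 1 is not given, so the C24 part stands without a background. PCC1 had a ratio of means of 1.83 in C24 (1.48 to 3.27 by replicate number) and 0.381 in Col (0.26 to 0.594). AT1G67950 had 1.1 in C24 (1.01 to 1.24) and 0.227 in Col (0.187 to 0.413). Its C24 log2 difference was -0.01 with the averaged libraries, so its direction in C24 did not hold. AT5G07770 had 1.11 in C24 (1.00 to 1.26) and 0.614 in Col (0.598 to 0.636). Its lowest C24 ratio came from 57.4 RPM in ddm1-C24 against 57.3 RPM in WT-C24, both replicate 1. The difference between C24 and Col was not tested for any of these 3 members.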

How the results depend on the processing

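Of the 18 members lower in C24, 9 kept the call under every alternative run (AT1G52000, AT3G05350, AT4G10060, BGLU8, COR15A, JAL23, NF-YC12, SBT3.12 and UMAMIT44), 11 kept it with each C24 library left out, and none changed direction. The count of lower members was 15 without a filter on low values, 19 with a filter of 5 RPM, 19 after rescaling and 25 in a fit of all 8 genotypes. It was 28 with the replicate block, 29 with the block after rescaling, 46 with all 8 genotypes and the block (1 member, PCC1, was then higher), 16 with the block and without ddm1-C24 replicate 2, 11 with replicates 2 and 3 of ddm1-C24 averaged, and 11 to 15 with 1 library left out. The median log2 difference was -1.025 to -0.792 over all alternatives. Shares over all genes are given above only for the main fit and the fit with the replicate block. The other counts, here and for the lists below, show how calls moved and are not read as results about the members or lists.

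Counts of lower genes in the lists moved more. They include the members XTH4, COR15A, BR6OX2 and VSP1 wherever these passed. Expansins and XTH genes gave 0, and 2 after rescaling, with the block, with both, and over all 8 genotypes, 10 over all 8 with the block, and 0 to 1 with a library left out. Cold and heat genes gave 2, and 1 over all 8 genotypes, 8 over all 8 with the block, 1 with the block and without ddm1-C24 replicate 2, 1 with the averaged libraries, and 1 to 3 with a library left out. Brassinosteroid and gibberellin genes gave 3, and 1 after rescaling, 5 with the block, 17 over all 8 with the block, 1 with the block and without ddm1-C24 replicate 2, 0 with the averaged libraries, and 0 to 3 with a library left out. Jasmonate genes gave 5, and 12 over all 8 with the block, 2 with the block and without ddm1-C24 replicate 2, 1 with the averaged libraries, and 1 to 5 with a library left out. Salicylic acid genes that were higher gave 19, and 11 with the averaged libraries and 11 to 17 with a library left out.

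The rule took 43 genes after rescaling, 15 at a ratio limit of 0.5, 187 at 0.75, 115 at a WT level of 2 RPM, 40 at 10 RPM, 64 with medians (40 of them among the 67), 51 with the limit set in C24 too, and 60 to 75 with a replicate number left out. The cause of these changes was not tested.

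Members with a C24 log2 difference that was not past the test changed sign in 13 cases. With a library left out the range was -0.43 to 0.039 for AT1G16690, -0.193 to 0.019 for AT1G31550, -0.29 to 0.178 for HXK3, -0.155 to 0.188 for AT1G58602, -0.146 to 0.445 for AT1G67950, -1.19 to 0.109 for AT2G16660, -1.661 to 1.07 for AT4G22505, -0.485 to 0.117 for AT4G22753, -0.484 to 0.244 for CGA1, -0.124 to 0.623 for AT5G07770, -1.173 to 0.031 for MIR162a and -1.408 to 0.358 for MES18. AT1G58602 was at 0.009 and CGA1 at 0.004 after rescaling, with and without the block. With the averaged libraries AT1G67950 was at -0.01, AT4G22505 at 0.129 and CGA1 at 0.113. AT5G18030 was at 0.039 with the block and without ddm1-C24 replicate 2.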
